A study of Mus musculus with 4 samples.

Results

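The protein arginine methyltransferases were examined in B220+ B cells of NSD1B KO and NSD1B WT mice, as 8 of the 55401 genes with a deposited count. They are *Prmt1*, *Prmt2*, *Prmt3*, *Carm1*, *Prmt5*, *Prmt6*, *Prmt7* and *Prmt9*, each taken by its symbol, and each symbol had 1 row in the counts. The family was chosen by a measured value, the absence of any count for *Prmt9* in NSD1B WT, and the other members were set beside it as its relatives. For *Prmt9* the difference between genotypes is therefore a description. *Prmt9* stayed in the fit of all genes and in the counts of members below, but its p-value is not given and is no support.

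RNA was sequenced from B cells sorted by the surface protein B220 from the spleen of C57BL/6J mice, in 2 libraries of NSD1B WT (Mb1-Cre+ NSD1+/+) and 2 of NSD1B KO (Mb1-Cre+ NSD1fl/fl). Both genotypes carry Mb1-Cre, in which the Cre recombinase is made under the *Cd79a* (Mb1) gene from early B cell development on, and only NSD1B KO carries *Nsd1* alleles with loxP sites around exons 6 to 8. *Nsd1* encodes a methyltransferase for lysine 36 of histone H3. Mice of the study were 7 to 9 weeks old and of both sexes, controls were littermates, and the labels tie neither age nor sex nor a separate animal to a library. If the libraries of a genotype came from 1 preparation, the p-values measure technical spread.

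Protein arginine methyltransferases move methyl groups from S-adenosylmethionine to the guanidine nitrogens of arginine in histones, splicing factors, ribosomal and signalling proteins. Type I enzymes make asymmetric dimethylarginine (*Prmt1*, *Prmt3*, *Carm1*, *Prmt6* and, weakly, *Prmt2*), type II enzymes make symmetric dimethylarginine (*Prmt5* and *Prmt9*), and the type III enzyme *Prmt7* stops at monomethylarginine. PRMT1 and PRMT5 are required for normal B cell development and germinal centre responses in mice. PRMT1 is the main source of asymmetric dimethylarginine in most mammalian cells and PRMT5 of the symmetric form.

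The promoters of *Prmt9*, *Prmt5* and *Prmt6* are shown as examples of genes with counts in 1 genotype and none in the other. *Prmt9* had counts in NSD1B KO, and *Prmt5* and *Prmt6* in NSD1B WT. *Prmt7*, counted in NSD1B KO only, and *Prmt1*, counted in NSD1B WT only, met the same criterion and are not shown. The *Prmt7* window held 0 matches to the cAMP response element, so that match is no shared trait of the genes counted in NSD1B KO only. Sequences are those of RefSeq on GRCm38.p6 (mm10), read 5′ to 3′ on the strand of the gene and ending at the base before its outermost annotated start. Capitals mark matches, on either strand, to the cAMP response element TGACGTCA or to the CCAAT box.
Prmt9, chr8:77549147-77549396, plus strand: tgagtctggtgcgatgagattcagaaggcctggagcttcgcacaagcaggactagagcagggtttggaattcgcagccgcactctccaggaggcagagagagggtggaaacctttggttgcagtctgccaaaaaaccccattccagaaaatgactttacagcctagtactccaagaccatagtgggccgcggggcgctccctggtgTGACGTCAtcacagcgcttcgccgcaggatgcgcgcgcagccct
Prmt5, chr14:54517526-54517720, minus strand: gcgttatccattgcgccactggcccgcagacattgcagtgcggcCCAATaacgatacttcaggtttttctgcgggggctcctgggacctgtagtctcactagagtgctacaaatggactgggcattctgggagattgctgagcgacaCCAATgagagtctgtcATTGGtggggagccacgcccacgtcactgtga
Prmt6, chr3:110251000-110251249, minus strand: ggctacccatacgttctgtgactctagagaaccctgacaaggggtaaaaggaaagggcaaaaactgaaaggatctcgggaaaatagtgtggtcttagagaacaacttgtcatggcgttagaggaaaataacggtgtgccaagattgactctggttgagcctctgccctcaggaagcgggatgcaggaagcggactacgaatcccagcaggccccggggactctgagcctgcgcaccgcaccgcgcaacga

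Windows of 300 bases, from 250 before to 50 after the start, were found for 7 of the 8 members, all but *Carm1*. The *Prmt9* window held 1 match to TGACGTCA, which occurs in 1.79% of 32851 promoter windows of that length, and none of the other 6 windows held one. The *Prmt5* window held 4 matches to CCAAT or its complement, a motif found in 37.4% of windows, and the *Prmt9*, *Prmt7* and *Prmt6* windows held 0. *Prmt1* and *Prmt3* each held 1 match to the E-box CACGTG (7.15% of windows). The GC box GGGCGG (35.7% of windows) was matched 4 times in *Prmt1*, 2 times in *Prmt2* and 1 time in *Prmt3* and *Prmt7*, and 0 times in *Prmt5*, *Prmt6* and *Prmt9*. The 7 windows held 16 to 39 CpG dinucleotides against a median of 7 over all windows. *Prmt7* had the most, with 95.6% of all windows below it, while 67.0% of windows lay below *Prmt5* and *Prmt6* and 68.6% below *Prmt1* and *Prmt9*. The CCAAT box was also matched 3 times in *Prmt1* and 1 time in *Prmt2* and *Prmt3*. Matches were sought on both strands, no motif searched contains another, and a match is a description of letters, not of a bound site.

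The libraries had 6769118 to 7566834 counts on genes, so 3 counts in 1 library correspond to 0.410 to 0.445 CPM (counts-per-million, scaled by edgeR's TMM method). *Nsd1* had 497 and 480 counts in NSD1B WT and 284 and 280 in NSD1B KO, a log2 fold change of -0.74 (SE 0.11, adjusted p = 8.22e-08 by edgeR's quasi-likelihood test), and since whole-gene counts include the undeleted exons this is a weak check of the labels. The 6 B cell markers were all counted and summed to 12480 to 12700 CPM in NSD1B WT and 11010 to 12010 in NSD1B KO, most of it *Cd79b*. *Cd79b* was at a log2 fold change of 0.26 and not past the threshold. The other 5 were lower in NSD1B KO, beside 41.1% of all tested genes. *Pax5* fell most, from 279 and 342 counts to 30 and 31 (log2 fold change -3.29). Markers of other cell types also differed. The 3 erythroid genes summed to 23.4 to 25.7 CPM in NSD1B WT and 1247 to 1500 in NSD1B KO, the 5 myeloid genes to 4564 to 4667 and 5714 to 6063, most of it *Lyz2* (3 of the 5 were higher, *Csf1r* among them, and 2 lower, *Itgam* and *S100a8*), and the 5 T cell genes to 23.9 to 26.8 and 49.7 to 51.9, with *Cd4* and *Cd8a* at 0 throughout. The 3 NK cell genes summed to 2.87 to 3.63 CPM and 0, with *Ncr1* and *Gzma* at 0 throughout, the 3 plasmacytoid dendritic cell genes to 63.0 to 68.2 and 106 in both libraries, nearly all *Bst2*, with *Siglech* at 0 throughout, and the 4 plasma cell genes to 216 to 231 and 169 to 174, with *Sdc1* at 0 throughout, *Jchain* and *Xbp1* lower and *Prdm1* higher (17 and 21 counts in NSD1B WT, 59 and 52 in NSD1B KO). The part of these cells in the differences below was not tested.

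The type II enzymes stood on opposite sides of the comparison, *Prmt9* in NSD1B KO and *Prmt5* in NSD1B WT. *Prmt9* (ENSMUSG00000037134.17, chromosome 8, 77549397 to 77581338, plus strand, mm10) methylates the splicing factor SF3B2. It had 0 and 0 counts in the NSD1B WT libraries and 530 and 410 in the NSD1B KO libraries, or 73.6 and 60.9 CPM. The genotypes were far apart, and the upper limit that a count of 0 over both NSD1B WT libraries allows, 0.207 CPM, makes *Prmt9* at least 324-fold higher in NSD1B KO for counting error alone. By its CPM in NSD1B KO, *Prmt9* ranked 3 among the 890 tested genes without a count in NSD1B WT. Genes at 0 in 1 genotype were common, 890 tested genes in NSD1B WT and 1313 in NSD1B KO, and since the counting program is not stated, how these zeros arose was not tested and a 0 is not read as absence of the transcript. In a bulk sample, fewer cells that express a gene and less RNA per cell cannot be told apart, here and for the other members.

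*Prmt5* (ENSMUSG00000023110.12, chromosome 14, 54507187 to 54517525, minus strand) makes most symmetric dimethylarginine and acts on the Sm proteins of the spliceosome and on histones. It had 151 and 121 counts in NSD1B WT and 0 and 0 in NSD1B KO. The NSD1B WT level was 18.8 ± 3.23 CPM (mean ± SD, n = 2), against an upper limit of 0.215 CPM in NSD1B KO, at least 87.4-fold lower (adjusted p = 5.76e-18 by edgeR's quasi-likelihood test across all genes). Both NSD1B WT libraries were above that limit and both NSD1B KO libraries were without a count. *Prmt5* passed the filter on low counts through NSD1B WT only, and *Prmt6* likewise, so their p-values are given as values of the fit and not as separate support.

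The type III enzyme *Prmt7* (ENSMUSG00000060098.11, chromosome 8, 106210936 to 106252794, plus strand) had the pattern of *Prmt9* at a lower level. It was counted 0 and 0 times in NSD1B WT and 75 and 64 times in NSD1B KO, or 9.96 ± 0.642 CPM in NSD1B KO, at least 48.0-fold higher (adjusted p = 4.51e-14 by edgeR's quasi-likelihood test). It passed the filter through NSD1B KO only, and the same holds for its p-value. The end of *Prmt7* shares 247 bp with *Smpd3* on the opposite strand, 4.03% of its exon sequence. *Smpd3* had 6 and 4 counts in NSD1B WT and 0 in NSD1B KO, the reverse of *Prmt7*. *Prmt7* and *Prmt9* lie on the same chromosome, and both were without a count in NSD1B WT.

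Among type I enzymes 1 was higher, 2 were lower, 1 was not past the threshold and 1 was too low to be tested. *Prmt3* (ENSMUSG00000030505.17, chromosome 7, 49778346 to 49858265, plus strand), a cytosolic enzyme that methylates the ribosomal protein RPS2, had 252 and 297 counts in NSD1B WT and 412 and 405 in NSD1B KO. Its level was 37.9 ± 3.79 and 58.7 ± 2.08 CPM (mean ± SD, n = 2), both NSD1B KO libraries lay above both NSD1B WT libraries, and the log2 fold change was 0.63 (SE 0.12, adjusted p = 5.29e-06 by edgeR's quasi-likelihood test). This was the smallest difference among the members past the threshold.

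*Carm1* (ENSMUSG00000032185.15, chromosome 9, 21546894 to 21592623, plus strand) is a coactivator that methylates histone H3 and the acetyltransferases p300 and CBP. It fell from 50 and 55 counts in NSD1B WT to 15 and 18 in NSD1B KO, or from 7.25 ± 0.372 to 2.38 ± 0.418 CPM (mean ± SD, n = 2). The log2 fold change was -1.61 (SE 0.35, adjusted p = 6.35e-05 by edgeR's quasi-likelihood test), and the groups did not overlap. The 3′ part of *Carm1* shares 1025 bp, 21.1% of its exon sequence, with *Yipf2* on the opposite strand, so without a stated strand setting part of its reads is uncertain. *Yipf2* itself had 55 and 43 counts in NSD1B WT and 30 and 24 in NSD1B KO, a log2 fold change of -0.81 (SE 0.33, adjusted p = 0.0226 by the same edgeR test).

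*Prmt6* (ENSMUSG00000049300.11, chromosome 3, 110246109 to 110250998, minus strand), which methylates arginine 2 of histone H3, had 18 and 18 counts in NSD1B WT and 0 and 0 in NSD1B KO. From 2.49 ± 0.0400 CPM (mean ± SD, n = 2) it was at least 11.6-fold lower (adjusted p = 4.33e-08 by edgeR's quasi-likelihood test). *C130013H08Rik*, an antisense transcript, covers 984 bp or 23.4% of its exon sequence and had 0 counts in all 4 libraries. The other overlaps with members were small, 84 bp of *Prmt2* with *Mir678*, 79 and 144 bp of *Prmt3* with *Gm44822* and *Gm26856*, and 21 bp of *Prmt7* with *Gm26786*.

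*Prmt2* (ENSMUSG00000020230.15, chromosome 10, 76207222 to 76237865, minus strand), a weak type I enzyme and nuclear receptor coactivator, was the only one of the 8 with overlapping groups. Its counts were 66 and 35 in NSD1B WT and 24 and 45 in NSD1B KO, or 9.23 and 4.78 CPM and 3.33 and 6.68 CPM. Replicate 2 differed from replicate 1 by -0.95 in NSD1B WT and by 1.004 in NSD1B KO on the log2 scale, more than the genotypes differed. The log2 fold change was -0.49 (95% interval -1.17 to 0.18, adjusted p = 0.175 by edgeR's quasi-likelihood test). Single libraries decided this value, which was 0.10 without NSD1B WT replicate 1 and -0.07 without NSD1B KO replicate 1. It was past the threshold without NSD1B WT replicate 2 (-0.86, adjusted p = 0.0483 by edgeR) and without NSD1B KO replicate 2 (-1.06, adjusted p = 0.0111 by edgeR).

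*Prmt1* (ENSMUSG00000109324.2, chromosome 7, 44975989 to 44986568, minus strand) had 5 and 4 counts in NSD1B WT and 0 and 0 in NSD1B KO. At 0.623 ± 0.108 CPM (mean ± SD, n = 2) it did not reach the minimum for the test, and against the limit of 3 counts it was at least 2.89-fold lower in NSD1B KO. When every gene with a count was tested, the adjusted p was 0.0322 by edgeR's quasi-likelihood test and 0.0859 by the Wald test of DESeq2. No other annotated gene overlaps *Prmt1* in GENCODE M21, and whether reads of *Prmt1* were lost as not unique, a class with 11.2% to 13.2% of the counted reads, was not tested.

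**Figure D1:**
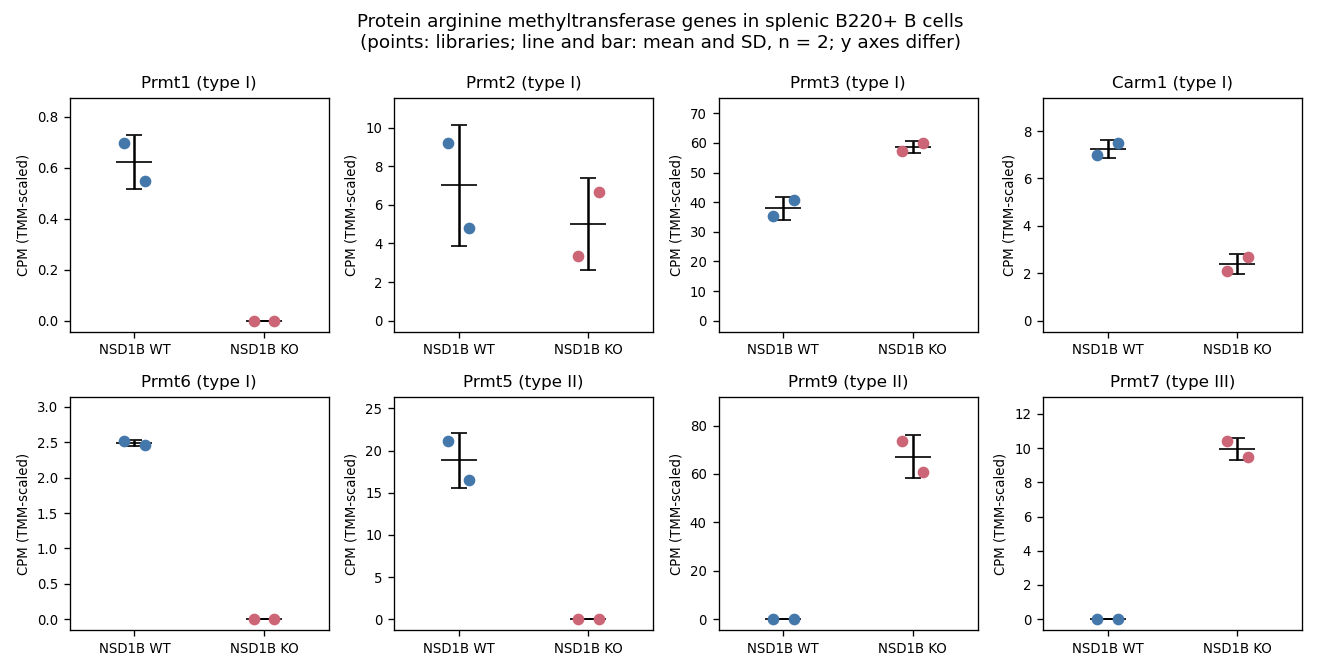
TMM-scaled CPM of each member (y axis, from 0, scaled per gene) in the NSD1B WT (blue) and NSD1B KO (red) libraries, with points for libraries and a line and bar for the mean and SD of the 2 libraries. *Prmt1*, *Prmt5* and *Prmt6* lie at 0 in NSD1B KO, *Prmt7* and *Prmt9* lie at 0 in NSD1B WT, and the genotypes overlap for *Prmt2*.

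Of the 8 members, 7 passed the filter on low counts and 4 of these passed through 1 genotype only, so that a difference was built into their selection. Past the threshold (edgeR's adjusted p under 0.05 together with more than a 1.2-fold difference) were 3 higher members, *Prmt9* included, and 3 lower ones, where 37.1% of 11657 tested genes were higher and 41.1% lower. The count of members without a read in NSD1B WT was 2, beside 7.63% of all tested genes, and in NSD1B KO it was 2 tested members and *Prmt1*, beside 11.3%. The groups did not overlap in 6 of the 7 tested members, beside 88.1% of all tested genes. With *Prmt9* among the values that chose the family, nothing is read from these shares.

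**Figure D2:**
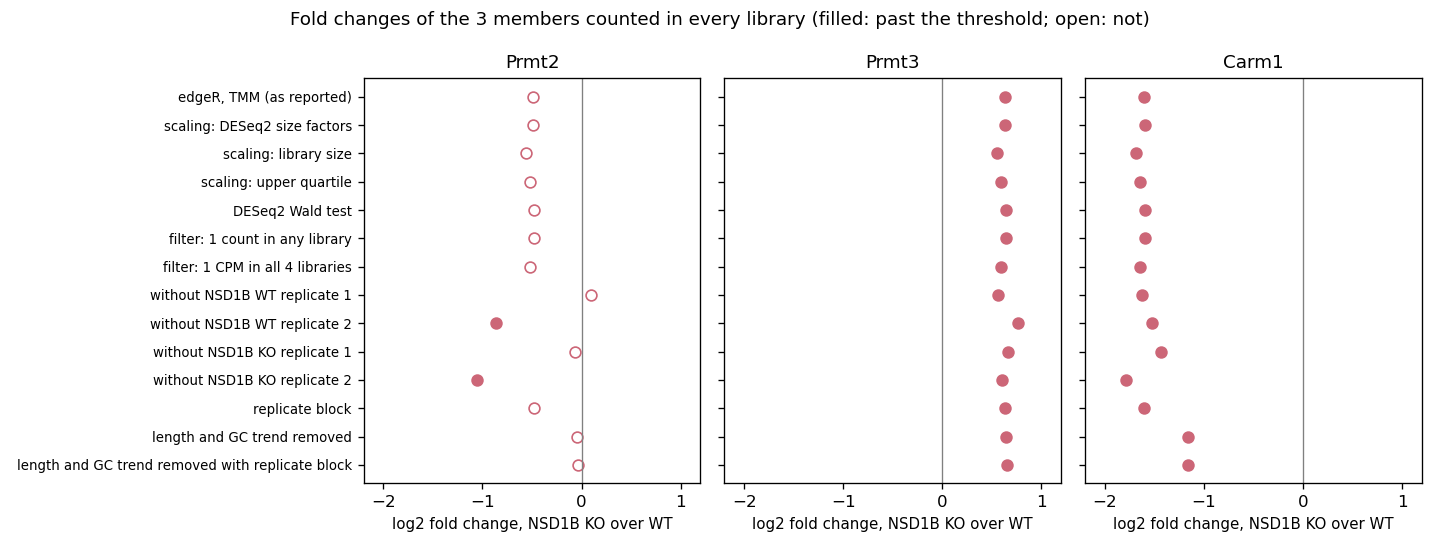
Log2 fold change of NSD1B KO over NSD1B WT (x axis) for *Prmt2*, *Prmt3* and *Carm1*, the members counted in every library, under each way of processing (rows), filled where past the threshold. *Prmt3* stays between 0.55 and 0.76 and *Carm1* between -1.79 and -1.16, while *Prmt2* runs from -1.06 to 0.10.

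Per kilobase of exon, which allows genes to be compared, *Prmt3* was the highest member in NSD1B WT at 5.88 and 6.77 CPM per kb, followed by *Prmt5* (5.33 and 4.18), *Prmt2* (2.73 and 1.41), *Carm1* (1.44 and 1.55), *Prmt6* (0.600 and 0.586) and *Prmt1* (0.204 and 0.160). Only *Prmt2* and *Carm1* overlapped among these neighbours. In NSD1B KO the order was *Prmt9* (12.9 and 10.7 CPM per kb), *Prmt3* (9.54 and 10.03), *Prmt7* (1.70 and 1.55), *Prmt2* (0.985 and 1.98) and *Carm1* (0.429 and 0.551), and *Prmt7* and *Prmt2* overlapped. The first 2 places of NSD1B KO depend on the length used, since with the longest transcript *Prmt3* stood at 19.97 and *Prmt9* at 17.3 CPM per kb.

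Summed over the 8 genes the level was 16.2 and 14.7 CPM per kb in NSD1B WT and 25.6 and 24.8 in NSD1B KO. Type I enzymes held nearly the same level in both genotypes, 10.9 and 10.5 CPM per kb in NSD1B WT and 10.9 and 12.6 in NSD1B KO, and *Prmt3* was the largest part of it. The type II level was 5.33 and 4.18 CPM per kb in NSD1B WT, all of it *Prmt5*, and 12.9 and 10.7 in NSD1B KO, all of it *Prmt9*. In shares of the summed level, type II was 28.5% and 33.0% of the family in the NSD1B WT libraries and 43.2% and 50.6% in the NSD1B KO libraries. These sums rest on the values that chose the family and were not tested.

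**Figure D3:**
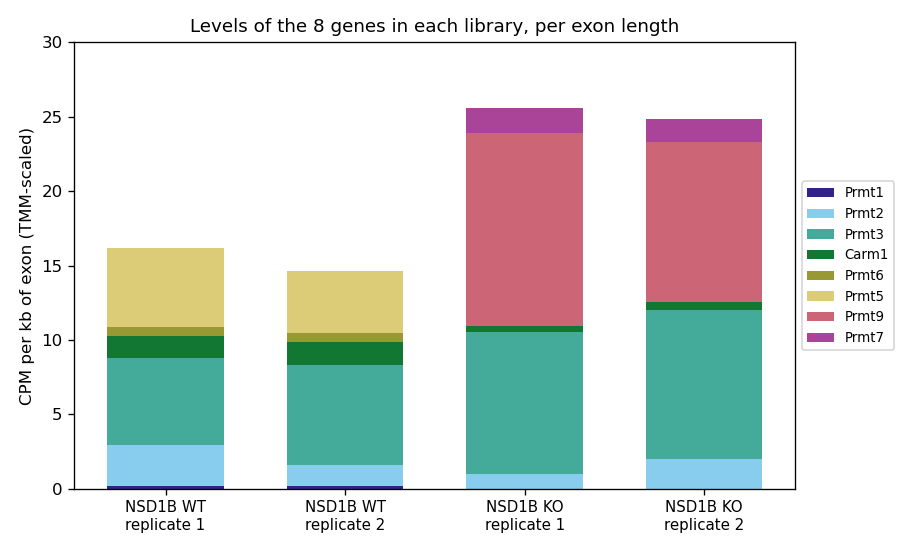
Stacked TMM-scaled CPM per kb of exon (y axis, from 0) of the 8 members in each of the 4 libraries, 1 colour per gene. *Prmt3* is present in every bar, *Prmt5* fills 4.18 to 5.33 CPM per kb of the NSD1B WT bars only, and *Prmt9* fills 10.7 to 12.9 of the NSD1B KO bars only.

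The nearest protein-coding neighbours of *Prmt9* did not share its pattern. *Tmem184c*, 14643 bp beyond the end of *Prmt9* and on the minus strand, had 433 and 481 counts in NSD1B WT and 487 and 474 in NSD1B KO (log2 fold change 0.13, SE 0.10, adjusted p = 0.259 by edgeR's quasi-likelihood test). *Arhgap10*, 31443 bp before its start, had 11 and 16 counts in NSD1B WT and 0 in NSD1B KO, at least 8.65-fold lower (adjusted p = 4.32e-07 by the same edgeR test). It passed the filter on low counts through NSD1B WT only, so its p-value is a value of the fit and not separate support. The snRNA *Gm23468* and the unclassified transcript *Gm45286* lie within *Prmt9* without sharing exon sequence, and both had 0 counts in all 4 libraries.

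Among the genes with values closest to *Prmt9* over the 4 libraries, by Euclidean distance in log2(CPM + 1), were *Zfp677* (distance 0.0892), *Saal1* (0.365), *Wdr37* (0.382) and *Tmem129* (0.399). They lie on chromosomes 17, 7, 13 and 5, and so on other chromosomes than *Prmt9*. *Zfp677*, a zinc finger gene, had 0 and 0 counts in NSD1B WT and 519 and 435 in NSD1B KO, at least 330-fold higher. *Wdr37* had 0 and 1 counts in NSD1B WT and 419 and 403 in NSD1B KO, a ratio of 853 with a 95% counting interval of 153 to 33750.

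The genes that work with arginine methyltransferases were followed in 8 lists with 71 genes, of which 63 could be tested. Of these 24 were higher and 28 lower in NSD1B KO and 11 were not past the threshold, which is 38.1% and 44.4% beside the 37.1% and 41.1% of all tested genes. The lists were chosen with earlier results of these data known.

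Among 6 partners of the enzymes, 3 were higher and 1 lower, beside 37.1% and 41.1% of all tested genes. Their median log2 fold change was 0.23 beside -0.10 for all tested genes. *Wdr77*, the obligate partner of PRMT5 known as MEP50, fell from 146 and 162 counts to 37 and 47 (log2 fold change -1.81, SE 0.23, adjusted p = 8.28e-10 by edgeR's quasi-likelihood test). Of the 3 adaptors of PRMT5 on the list, *Clns1a* and *Riok1* were higher and *Coprs* was not past the threshold. *Clns1a* (pICln), the adaptor for Sm proteins, rose from 906 and 945 counts to 2088 and 1774, and *Riok1*, the adaptor for nucleolin, from 58 and 36 to 455 and 373, at log2 fold changes of 1.11 and 3.19 (adjusted p = 1.77e-16 and 2.52e-21 by edgeR). *Btg1*, a partner of PRMT1, rose by a log2 fold change of 0.38 (adjusted p = 2.95e-05 by edgeR), while *Coprs*, which directs PRMT5 to histones, and *Btg2* were at -0.05 and 0.08 and not past the threshold.

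Of the 9 tested genes of methyl donor supply and recycling 6 were higher and 3 lower, beside 37.1% and 41.1% of all tested genes, with a median log2 fold change of 1.254 beside -0.10. *Mtap*, *Mtrr* and *Ahcy* passed the filter through NSD1B KO only, and *Mtr* and *Ahcyl1* through NSD1B WT only. *Mat1a*, the form of the liver, had 0 counts in all libraries. *Mtap*, which removes methylthioadenosine, an inhibitor of PRMT5, had 0 and 0 counts in NSD1B WT and 202 and 133 in NSD1B KO, at least 115-fold higher. *Ahcy* and its relatives, which hydrolyse S-adenosylhomocysteine or resemble the enzyme that does, diverged. *Ahcyl2* rose from 23 and 22 counts to 784 and 655 (log2 fold change 5.04) and *Ahcy* from 4 and 4 to 80 and 69 (4.23), whereas *Ahcyl1* fell from 172 and 184 to 7 and 7 (-4.59). *Mat2a*, the catalytic subunit of S-adenosylmethionine synthetase, rose from 131 and 138 counts to 360 and 260 (1.254) and its regulatory subunit *Mat2b* fell (-1.44). Of the pair that remethylates homocysteine, *Mtr* fell from 130 and 130 counts to 5 and 2 (-5.11), and *Mtrr*, which reactivates it, had 1 and 0 counts in NSD1B WT and 109 and 82 in NSD1B KO, a ratio of 198 (95% counting interval 35.2 to 7873).

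Of 7 tested genes that read or remove methylated arginine 4 were lower and 1 higher, beside 41.1% and 37.1% of all tested genes, and their median log2 fold change was -1.86 beside -0.10. *Snd1* passed the filter through NSD1B WT only. *Snd1*, a Tudor domain protein that binds symmetric dimethylarginine, had 36 and 34 counts in NSD1B WT and 0 in NSD1B KO, at least 22.5-fold lower. *Padi4*, which converts arginine to citrulline, and *Tdrd3*, a reader of asymmetric dimethylarginine, fell at log2 fold changes of -3.80 and -2.91 (adjusted p = 1.61e-16 and 3.11e-17 by edgeR's quasi-likelihood test). *Spin1*, a Tudor-like reader of histone H3, was the higher gene of the list, at a log2 fold change of 0.29, and *Smn1*, the reader of methylated Sm proteins, was at -0.15 and not past the threshold. *Ddah1* and *Ddah2*, which break down free dimethylarginine, had 0 counts in all libraries, and *Padi2* had 1 count in all.

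The SF3B complex of the U2 snRNP holds the substrate of PRMT9. Of its 7 genes 2 were higher and 4 lower, beside 37.1% and 41.1% of all tested genes. Their median log2 fold change was -0.31 beside -0.10 for all tested genes. *Sf3b2*, the substrate itself, had 322 and 445 counts in NSD1B WT and 293 and 303 in NSD1B KO, a log2 fold change of -0.31 (SE 0.13, adjusted p = 0.0243 by edgeR's quasi-likelihood test). Its direct partner *Sf3b4* fell from 305 and 266 counts to 89 and 87 (-1.64), and *Phf5a* (-1.28) and *Sf3b3* (-0.69) were also lower. *Sf3b1* and *Sf3b6* were higher, at log2 fold changes of 0.53 and 0.49.

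Of 18 genes of RNA-binding substrates 9 were higher and 6 lower, beside 37.1% and 41.1% of all tested genes. The differences were small, between -0.71 for *Pabpc1*, a CARM1 substrate, and 0.96 for *Taf15*, a PRMT1 substrate, on the log2 scale among the genes named here. The Sm proteins that PRMT5 methylates were split, with *Snrpd1* at 0.52 and *Snrpd3* at 0.53 and *Snrpb* at -0.43, each past the threshold by edgeR's quasi-likelihood test. *Hnrnpa2b1* was among the 3 highest (0.87), and *Lsm4* and *Hnrnpa1* among the 3 lowest (-0.52 and -0.47). The PRMT3 substrate *Rps2* was at -0.35.

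Of 8 tested chromatin and signalling substrates 3 were higher and 4 lower, beside 37.1% and 41.1% of all tested genes. *Cd79a*, the Ig alpha chain of the B cell receptor and a PRMT1 substrate, fell from 14544 and 14192 counts to 5831 and 5166 (log2 fold change -1.33, SE 0.08, adjusted p = 9.27e-21 by edgeR's quasi-likelihood test), and it is also the gene under which Cre is made in both genotypes. *Smarcc1* (-2.54) and *Foxo1* (-1.08) were lower too, and *Rela* (2.06), *Bcl6* (1.60) and *Crebbp* (1.58) were higher, and *E2f1* and *Med12* had 0 counts in all libraries. *Smarcc1*, with 32 and 30 counts in NSD1B WT and 2 and 8 in NSD1B KO, passed the filter through NSD1B WT only. Of the other arginine methyltransferases *Ndufaf7*, a mitochondrial enzyme that methylates a complex I subunit, was lower (-2.48), *Mettl23* was at 0.15 and not past the threshold, and *Prmt8*, known from brain, had 0 counts in all libraries.

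Genes of cell division, which like *Prmt1* and *Prmt5* are raised in dividing B cells, were lower in 5 of 6 tested and higher in 0, beside 41.1% and 37.1% of all tested genes, and 4 of the 5 passed the filter through NSD1B WT only. *Cdk1*, *Ccnb1*, *Top2a* and *Mki67* had 19 to 141 counts per library in NSD1B WT and 0 in NSD1B KO, the pattern of *Prmt5* and *Prmt6*, and were at least 87.0-, 63.2-, 19.8- and 13.8-fold lower. *Myc* fell from 2027 and 1856 counts to 555 and 455 (log2 fold change -1.89, adjusted p = 1.74e-23 by edgeR's quasi-likelihood test), and *Pcna* was at 0.19, short of a fold change of 1.2, and *Mcm5*, with 1 and 2 counts in NSD1B WT and 0 in NSD1B KO, was not tested. The list's median log2 fold change was -7.67, or -4.05 with the genes at 0 set to their bound. The part of dividing cells in the values of *Prmt5* and *Prmt6* was not tested.

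**Figure D4:**
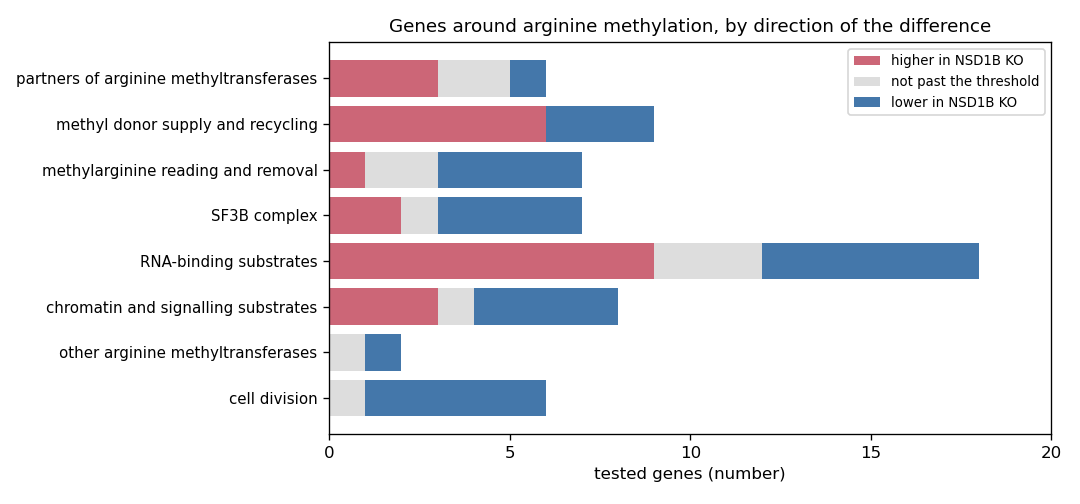
Number of tested genes (x axis) of each of the 8 lists (rows) that were higher in NSD1B KO (red), lower (blue) or not past the threshold (grey) by edgeR. Methyl donor genes have 6 higher and 3 lower members and no grey part, and cell division genes have no red part.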

How the data were processed

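RNA from splenic B220+ B cells was sequenced in 2 NSD1B WT and 2 NSD1B KO libraries, grouped by their titles. The authors mapped paired-end reads to mm10 with Bowtie2, and for each gene a raw, unscaled count was deposited, whereas the submitters' processing notes also name Cufflinks, whose values were not used here. Which program counted the reads, with which strand setting and gene annotation, is not given in the sources used here. Summary lines that name no gene stayed out of the library sizes. Reads on no gene made up 44.3% to 44.6% of the counted reads, ambiguous reads 2.22% to 2.41%, and reads that were not unique 11.2% to 13.2%. GENCODE M21 (GRCm38), which gave positions and exon lengths, held 55141 of 55401 identifiers.

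Counts were scaled by TMM and tested with the quasi-likelihood test of edgeR 4.0.16 in R 4.3.3, after filterByExpr (min.count 10, min.total.count 15), with Benjamini-Hochberg adjustment over all 11657 genes. A call required both adjusted p under 0.05 and more than a 1.2-fold difference. The study's methods give a p limit without stating an adjustment, and here the adjusted p was used in its place. The legend of its RNA-seq figure gives stricter limits, an adjusted p below 1e-05 and a log2 fold change beyond 0.5 in either direction. These limits were used as an alternative. A genotype at 0 was given a limit of 3 counts over its libraries, which like the intervals covers counting error only. Standard errors were taken from the F statistic. Figures were drawn with Python 3.11.15. Each fit was run on simulated counts first. With 2 libraries against 2 no exact permutation test of 1 gene can reach 0.05, and none was made. DESeq2 1.42.0 and the other alternatives are given in the closing section.

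The members, lists, motifs and tests were chosen with earlier results of these data known. Named genes were all members, *Nsd1*, up to 3 higher and 3 lower genes of each list with the largest changes and list genes at 0, neighbours of *Prmt9*, genes overlapping a member, and the 5 genes most like *Prmt9*. *Btg2*, *Coprs*, *Mettl23*, *Smn1*, *Rps2*, *Snrpb*, *Snrpd1*, *Snrpd3*, *Sf3b2*, *Ahcy*, *Mat2a*, *Pcna* and *Myc* are list genes outside this rule, named after their values were seen. Genes that the rule names but that could not be included are not reported here.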

Additional observations from a re-analysis of the deposited data

How the results depend on the processing

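*Prmt3* and *Carm1* kept their direction and their call under 3 other scalings, the Wald test of DESeq2, 2 other filters, each library left out, the replicate number as a block, and correction for exon length and GC content, alone and with the block. The direction of *Prmt5*, *Prmt6*, *Prmt7* and *Prmt9* is fixed by their 0 counts in 1 genotype and is no sign of stability. A filter of 1 CPM in all 4 libraries removed *Prmt5*, *Prmt6*, *Prmt7* and *Prmt9* and left 1 higher and 1 lower member in place of 3 and 3, and 2855 higher and 2991 lower genes in all in place of 4323 and 4795. The limits of the study's RNA-seq figure, 1e-05 on the adjusted p and 0.5 on the log2 scale, were passed by 3198 higher and 3467 lower genes. Among the members 3 higher and 2 lower ones passed them, without *Carm1*. Testing every gene with a count added *Prmt1* to the lower members. With each library left out the members numbered 3 higher and 3 to 4 lower, and *Prmt2* ran from -1.06 to 0.10. With the length and GC correction *Carm1* moved to -1.16 and *Prmt2* to -0.04. Per longest transcript, 2 members changed their place in the order of levels. The replicate numbers were not shown to pair libraries, since deviations of libraries with the same number correlated at 0.0645 and the labels give no shared batch, and the fit with the replicate block gave 3 higher and 3 lower members and changed no call of a member. Depth limits *Prmt1* most, with at most 5 counts in a library.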
